A study of Drosophila melanogaster with 6 samples.

Results

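The maltase genes of Drosophila melanogaster were followed in whole larvae of instar 3 by RNA-seq. The family had 10 rows among the 16662 rows of the expression table: Mal-A1, Mal-A2, Mal-A3, Mal-A4, Mal-A5, Mal-A6, Mal-A7, Mal-A8, Mal-B1 and Mal-B2. Each row carried the symbol of a single gene, and the rows were taken by symbol, whatever their values. The family itself, however, was selected on the expression levels of these same libraries in mutants and control, so every difference between mutants and control below is a description.

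The control was the yw strain, which carries the yellow and white mutations. The mutants came from stocks homozygous for HP1b16 or HP1b86. Both are deletions made by imprecise excision of a P element that take away the start codon of HP1b, and both were backcrossed to yw. HP1b lies on the X chromosome, so males of these stocks carry a single copy of the allele. The paper does not state the sex of the sequenced larvae. Each allele is a single excision line, and the HP1b16 locus still makes an aberrant RNA. All larvae were reared at 25 °C on Jazzmix food, and each of the 3 genotypes was measured in 2 libraries. Nothing in the sources used here states that libraries of 1 genotype were grown or collected apart, so errors and p-values reflect library-to-library spread, which may be technical. HP1b belongs to the HP1 family of chromatin proteins, and the series compared gene expression between larvae with and without it.

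Levels are given in FPKM, the fragments of a gene scaled to its transcript length and to the fragments of the library. HP1b itself stood at 22.8 and 24.2 FPKM in yw, at 2.55 and 3.13 FPKM in HP1b16 and at 0.121 and 0.0403 FPKM in HP1b86, in the order of the labels. The number of reads is not in the table. The lowest values, which are set by a few reads, gave an estimated relative depth between 0.433 for HP1b86 replicate 1 and 1.32 for HP1b16 replicate 2, with yw replicate 1 set to 1. The HP1b86 libraries were also the least alike: 23.6% of the tested rows differed more than 2-fold between them, compared to 1.82% in yw and 1.85% in HP1b16. The summed FPKM of a library ran from 654430 to 1132181, the highest in HP1b86 replicate 1.

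Maltases are alpha-glucosidases of the digestive tract. They cut glucose from the end of maltose, sucrose and short products of starch, downstream of the amylases, and the glucose is then taken up by the enterocytes of the midgut. In flies, digestive carbohydrases of the midgut are known to be lowered by dietary sugar, in part through the Activin-like ligand Dawdle. Mal-A1, Mal-A2 and Mal-A3 were first described as the larval visceral protein genes LvpH, LvpD and LvpL. In the reference annotation (Release 6 plus ISO1 MT) the 8 Mal-A genes lie side by side on chromosome arm 2R, in the order of their numbers and with no other protein-coding gene between them, while Mal-B1 and Mal-B2 are neighbours on arm 2L. The deposited values were made on an older build, dm3, so only gene names and gene order are used here.

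The family was not uniform. It held 4 kinds of behaviour, described here after the values were seen: a group at the start of the cluster that was low in yw and higher in every mutant library, by 1.85-fold or more over the highest yw library (Mal-A1, Mal-A2, Mal-A3 and Mal-A4), the most abundant maltase, which was lower in every mutant library (Mal-A5), a gene with a smaller difference upward (Mal-A8), and genes whose mutant and control libraries overlapped (Mal-A6, Mal-A7, Mal-B1 and Mal-B2). The plot of FPKM by library shows all 10 genes.

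**Figure D1:**
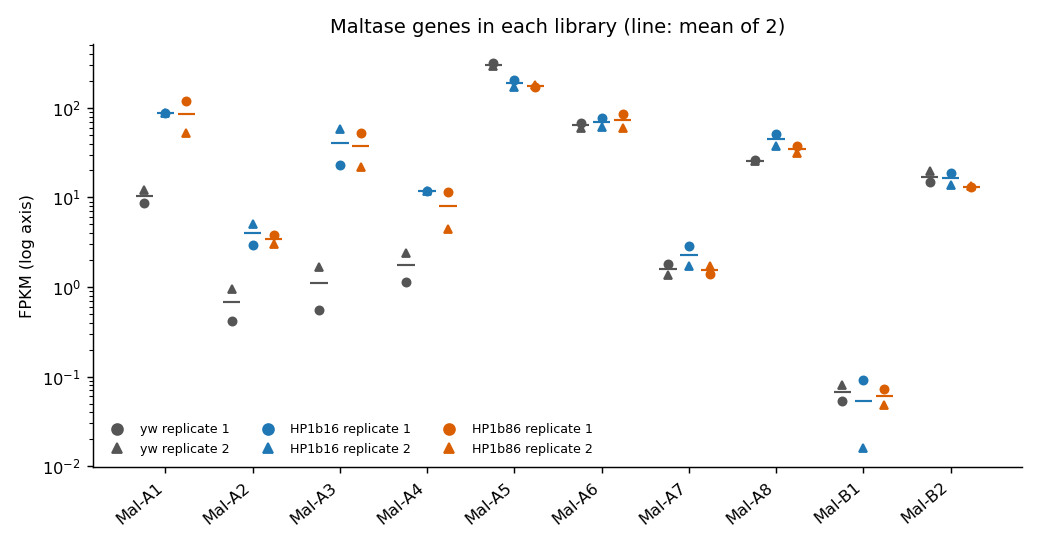
FPKM of the 10 maltase genes on a log axis, for yw, HP1b16 and HP1b86; circles are replicate 1, triangles replicate 2 and short lines the mean of 2 libraries. Mal-A1 to Mal-A4 sat higher in the 4 mutant libraries than in both yw libraries, Mal-A5 sat lower, and Mal-B1 stayed below 0.1 FPKM in every library.

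Mal-A1 was at 8.70 and 12.1 FPKM in yw, at 86.6 and 86.8 FPKM in HP1b16 and at 118 and 51.8 FPKM in HP1b86. The lowest mutant library was 4.26-fold above the highest yw library. The mean over yw was 10.4 ± 2.43 FPKM (SD, n = 2), compared to 86.7 ± 0.128 in HP1b16 and 84.8 ± 46.7 in HP1b86, so the mutants had similar means and very different spreads. On the log2(FPKM + 1) scale used for all differences, which understates the change of genes with low values, Mal-A1 was higher by 2.96 ± 0.42 (SE) in HP1b16 and by 2.81 ± 0.42 in HP1b86. Each SE and call comes from a spread shared by all genotypes, so those of HP1b16 also carry the spread of HP1b86. With yw and HP1b16 fitted alone, the SE of Mal-A1 was 0.18.

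Mal-A3 showed the largest difference of the family. It stood at 0.547 and 1.66 FPKM in yw, at 23.0 and 58.7 FPKM in HP1b16 and at 52.3 and 22.0 FPKM in HP1b86. The lowest mutant library was 13.2-fold above the highest yw library, although replicates of the same genotype were 2.38-fold to 3.04-fold apart. The log2 differences were 4.22 ± 0.65 and 4.11 ± 0.65 for HP1b16 and HP1b86, respectively.

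Mal-A4, which lies next to Mal-A3, was at 1.13 and 2.38 FPKM in yw, at 11.9 and 11.8 FPKM in HP1b16 and at 11.6 and 4.41 FPKM in HP1b86. The lowest mutant library, HP1b86 replicate 2, was 1.85-fold above the highest yw library. Differences were 2.26 ± 0.47 in HP1b16 and 1.62 ± 0.47 in HP1b86.

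Mal-A2 was the least abundant of the group, at 0.421 and 0.943 FPKM in yw, 2.91 and 5.08 FPKM in HP1b16 and 3.81 and 3.002 FPKM in HP1b86. The groups did not overlap, with a gap of 3.08-fold between the lowest mutant library and the highest yw library. Its differences of 1.55 ± 0.31 in HP1b16 and 1.40 ± 0.31 in HP1b86 depend on the value added before the logarithm, since yw was below 1 FPKM: with 0.1 in place of 1 they were 2.42 and 2.24.

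The 4 genes also shared the direction of their differences within a genotype. In yw each was higher in replicate 2, by 1.40-fold to 3.04-fold, and in HP1b86 each was higher in replicate 1, by 1.27-fold to 2.62-fold. In HP1b16 the libraries agreed for Mal-A1 and Mal-A4, within 1.01-fold, while Mal-A2 and Mal-A3 were 1.74-fold and 2.55-fold higher in replicate 2. The genes have similar sequences as members of a family, and how reads that match several of them were shared out is not stated, so their levels may not be fully separate.

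Mal-A5, the most abundant maltase in all 6 libraries, went the other way. It was at 315 and 293 FPKM in yw, at 204 and 172 FPKM in HP1b16 and at 169.9 and 178 FPKM in HP1b86. Mutant libraries lay within a narrow range, and the highest was below the lowest yw library. The mean was 304 ± 15.4 FPKM (SD, n = 2) in yw, 188 ± 22.4 in HP1b16 and 174 ± 5.80 in HP1b86, a log2 difference of -0.69 ± 0.14 and -0.80 ± 0.14, respectively.

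Mal-A8, at the far end of the cluster, was at 26.0 and 25.4 FPKM in yw, at 50.9 and 37.8 FPKM in HP1b16 and at 37.6 and 31.6 FPKM in HP1b86. All 4 mutant libraries were above both yw libraries, by 1.21-fold or more. The differences were 0.75 ± 0.19 in HP1b16 and 0.41 ± 0.19 in HP1b86; the latter became -0.17 when every library was scaled to the same summed FPKM.

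Mal-A6, the neighbour of Mal-A5 and second to it in yw, stood at 67.4 and 60.3 FPKM in yw, 77.3 and 61.8 FPKM in HP1b16 and 86.0 and 59.8 FPKM in HP1b86. The genotypes overlapped, and the sign of its small differences (0.11 ± 0.23 and 0.17 ± 0.23) turned with the scaling, to -0.43 in HP1b86 at an equal summed FPKM.

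Mal-A7 was a gene of low level, at 1.82 and 1.38 FPKM in yw, 2.83 and 1.70 FPKM in HP1b16 and 1.40 and 1.73 FPKM in HP1b86. Its groups overlapped as well, with differences of 0.31 ± 0.25 and -0.02 ± 0.25, the latter positive under some scalings and negative under others.

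The pair on arm 2L behaved unlike the start of the Mal-A cluster. Mal-B2 was at 14.7 and 19.5 FPKM in yw, 19.0 and 13.7 FPKM in HP1b16 and 13.0 and 13.4 FPKM in HP1b86. Both HP1b86 libraries were below both yw libraries, with a difference of -0.34 ± 0.22. HP1b16 overlapped with yw, with a difference of -0.07 ± 0.22 that turned positive when libraries were scaled by median ratios. Mal-B1, directly beside it, had between 0.0160 and 0.0912 FPKM in all 6 libraries and was left out of the fit, which used the 10986 rows whose mean reached 1 FPKM. Levels this low rest on few reads, and no difference in Mal-B1 was tested.

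**Figure D2:**
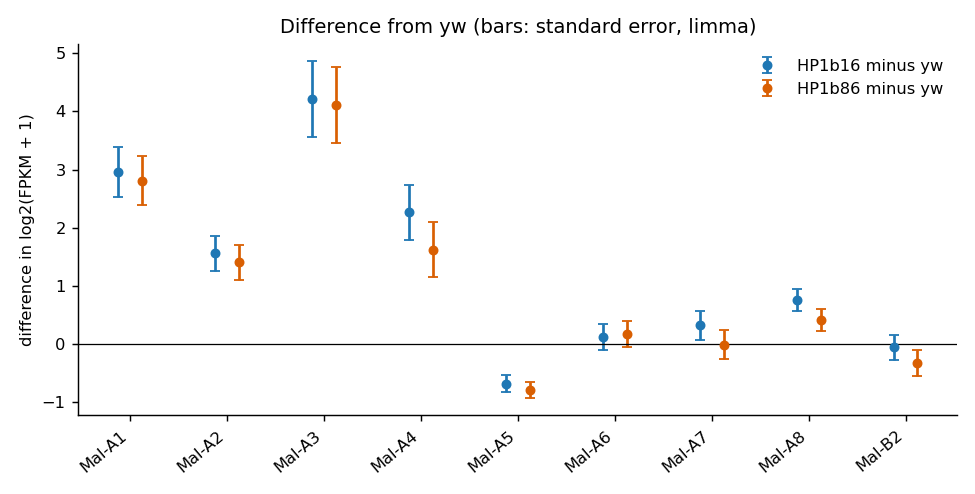
Difference from yw in log2(FPKM + 1) for the 9 maltase genes whose mean reached 1 FPKM, in HP1b16 (blue) and HP1b86 (orange); bars are the standard error from limma. The points run from 4.22 and 4.11 for Mal-A3 down to -0.69 and -0.80 for Mal-A5, and those of Mal-A4 (2.26 and 1.62), Mal-A7 (0.31 and -0.02), Mal-A8 (0.75 and 0.41) and Mal-B2 (-0.07 and -0.34) are apart by more than 1 standard error; the yw libraries behind both sets of points are the same.

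Of the 10 members, 9 passed the filter on low values. In HP1b16 against yw, 0 of the 9 passed an adjusted p of 0.05 in limma (Benjamini-Hochberg over all 10986 rows), where 0.0091% of all rows were called higher and 0.0091% lower; 6 of the 9 had an unadjusted p under 0.05, compared to 23.7% of all rows. In HP1b86 against yw, Mal-A1 was called higher and no member lower, against 2.98% and 1.06% of all rows. For the mean of both mutants, Mal-A1 and Mal-A3 were called higher and Mal-A5 lower, against 4.68% and 1.7% of all rows. These calls use the values on which the family was selected, and nothing is read from them. The call of Mal-A1 in HP1b86 was lost without either yw library and without either HP1b16 library, and all 3 calls in the mean of both mutants were lost in each of the same 4 fits. In those 4 fits 0 rows of the whole table were called in either comparison, so the calls of other genes given below were lost there as well. The call of Mal-A5 in the mean of both mutants was also lost with no filter on low values (adjusted p = 0.0518, limma) and with median ratios (adjusted p = 0.0656, limma), within a range of 0.0159 to 0.344 over all alternatives.

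Without regard to the fit, 5 of the 10 members had all 4 mutant libraries above both yw libraries, as did 24.4% of the tested rows, and 1 had all 4 below, as did 19.8%. The median log2 difference of the 9 members was 0.75 in HP1b16, compared to -0.10 over all tested rows, and 0.41 in HP1b86, compared to -0.00 over all tested rows. The yw libraries were common to both comparisons, so the likeness of the mutants in these differences is not independent evidence. With every library scaled to the same summed FPKM, which moved the median of all tested rows to -0.32 in HP1b16 and -0.53 in HP1b86, 4 members stayed above (Mal-A1 to Mal-A4), as did 12.7% of the tested rows, Mal-A8 overlapped, and Mal-A5 stayed below, as did 43.4%.

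The composition of the family differed more than its sum. The 10 genes summed to 436 and 417 FPKM in yw, 479 and 450 FPKM in HP1b16 and 493 and 366 FPKM in HP1b86, so yw lay within the range of HP1b86. As a share of the summed FPKM of the library, the family was lower in every mutant library, at 0.0663% and 0.0637% in yw, 0.0623% and 0.0578% in HP1b16 and 0.0436% and 0.0418% in HP1b86. The library sum includes abundant rows listed at 0 in some libraries, such as Lsp2, at 7602 and 8239 FPKM in yw and 0 in both HP1b16 libraries. Every result at an equal summed FPKM has this limit too. Mal-A5 made up 72.3% and 70.3% of the maltase sum in yw, 42.6% and 38.3% in HP1b16 and 34.4% and 48.7% in HP1b86. The share of Mal-A1 to Mal-A4, a group formed after their values were seen, was 2.48% and 4.11% with yw, 26.0% and 36.1% with HP1b16 and 37.6% and 22.2% with HP1b86. FPKM is a level per transcript length, so the shares are close to shares of molecules and not of reads.

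**Figure D3:**
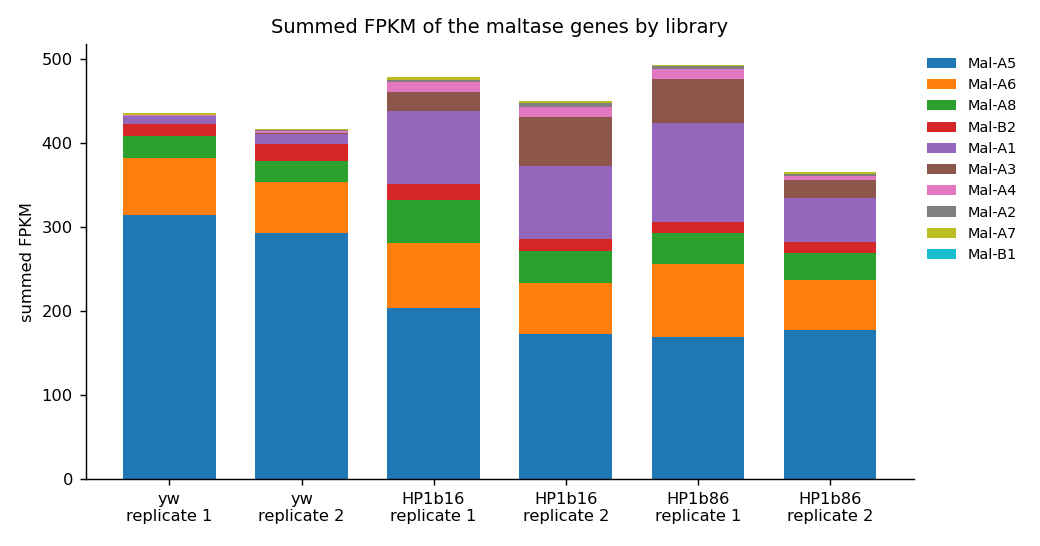
Summed FPKM of the 10 maltase genes in each library, stacked by gene. The total lies between 366 and 493 FPKM in all 6 libraries, while Mal-A5 (bottom, blue) is smaller and Mal-A1 and Mal-A3 (purple and brown) are larger in the mutants.

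Ratios within a library do not depend on how libraries are scaled to each other. Mal-A5 exceeded Mal-A1 by 36.2-fold and 24.1-fold in yw, by 2.36-fold and 1.99-fold in HP1b16 and by 1.44-fold and 3.44-fold in HP1b86. The ratio of Mal-A5 to its neighbour Mal-A6 was 4.67 and 4.86 in yw, 2.64 and 2.79 in HP1b16 and 1.97 and 2.98 in HP1b86. Both ratios were lower in every mutant library than in either yw library, which shows unequal change and not which gene of a pair moved.

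The order of levels moved accordingly. Mal-A5 was first and Mal-B1 last in all 6 libraries. Mal-A1 was rank 5 in both yw libraries, behind Mal-A5, Mal-A6, Mal-A8 and Mal-B2, and rank 2 or 3 in every mutant library. Mal-A3 moved from rank 8 and 7 to rank 4 or 5, and Mal-B2 from rank 4 to rank 6. In yw the neighbours Mal-A3, Mal-A4 and Mal-A7 had overlapping levels, as had Mal-A2 and Mal-A3, so their order there is not resolved. In the mutants Mal-A1 and Mal-A6 overlapped, as did Mal-A3 and Mal-A8.

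The alleles were also compared with each other, a contrast in which yw enters only through the shared spread. No member passed the test: 0 of 9 reached an adjusted p of 0.05 in limma and 0 had an unadjusted p under 0.05, where 0% of all rows were called higher in HP1b16, 0.0091% lower and 7.9% had an unadjusted p under 0.05. The intervals were wide for the genes with the largest differences from yw. For Mal-A1 the difference between HP1b16 and HP1b86 was 0.15 (95% interval -0.97 to 1.27, adjusted p = 0.918, limma), and for Mal-A3 it was 0.11 (-1.61 to 1.84, adjusted p = 0.958, limma). The tightest interval was that of Mal-A5, 0.11 (-0.27 to 0.48, adjusted p = 0.886, limma). Mal-A4 had the largest estimate, 0.64 (-0.60 to 1.89, adjusted p = 0.815, limma), with HP1b16 the higher. These estimates rest on single libraries. Without HP1b86 replicate 1 the difference was 1.25 for Mal-A4, 0.73 for Mal-A1 and 0.72 for Mal-A3, and without HP1b86 replicate 2 it was 0.04, -0.44 and -0.50. Mal-A3 was at 0.77 without HP1b16 replicate 1 and at -0.55 without HP1b16 replicate 2, and Mal-A5 at -0.01 and 0.23, respectively. These intervals do not show that the alleles act alike, since log2 differences near 1 in either direction remain within the interval of Mal-A1.

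Set in chromosomal order, the same member values step down between Mal-A4 and Mal-A5. In the reference order Mal-A1 is preceded by Cyp4ad1, Cyp4e2 and Cyp4e1, which encode cytochrome P450 enzymes, and Mal-A8 is followed by mtt, CG12780 and Cyp6a14. These neighbours were added after the values of the members had been seen. In log2(FPKM + 1), the 4 mutant libraries differed from the mean of yw by 2.22 to 3.39 at Mal-A1 and by 1.01 to 2.27 at Mal-A4, and then by -0.57 to -0.84 at Mal-A5. Outside the cluster, Cyp4ad1, Cyp4e1 and Cyp6a14 were above yw in all 4 mutant libraries, as were 24.4% of the tested rows. The gene mtt, a metabotropic glutamate receptor relative, was below in all 4, as were 19.8%, while Cyp4e2 and CG12780 overlapped with yw. At an equal summed FPKM CG12780 was below yw in all 4 too, as were 43.4%. The level of mtt was between 0.279 and 0.915 FPKM, under the filter on low values. Cyp4e1, next to Mal-A1, differed by 0.32 to 0.94 and stood between 0.130 and 1.31 FPKM.

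**Figure D4:**
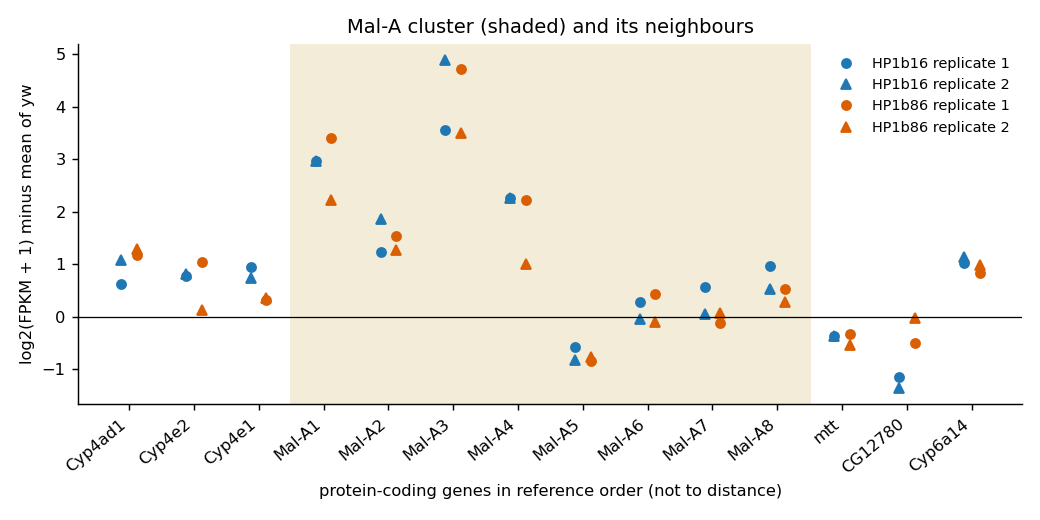
Difference of each of the 4 mutant libraries from the mean of yw, in log2(FPKM + 1), for the Mal-A genes (shaded) and 3 protein-coding neighbours on each side, in reference order and not to distance. Values lie between 1.01 and 4.88 from Mal-A1 to Mal-A4, drop below 0 at Mal-A5 and lie between -0.11 and 0.96 from Mal-A6 to Mal-A8 in all 4 libraries.

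Markers of tissues other than the maltase genes moved with the genotypes too. Of the 23 tested rows of a midgut list (digestive proteases, transport genes and midgut regulators), 19 were above both yw libraries in all 4 mutant libraries. The same held for 24.4% of all tested rows. The summed level of the list, carried mostly by the Jonah proteases, was 13554 to 15699 FPKM in yw and 26421 to 102847 FPKM in the mutants. In limma 5 of the 23 were called higher in the mean of both mutants and 0 lower, against 4.68% and 1.7% of all rows. Among the 5 were the trypsin gene betaTry (3.89 ± 0.40), the sterol uptake gene Npc1b (2.04 ± 0.22) and the proteases Jon65Aii (1.40 ± 0.19) and Jon65Ai (1.29 ± 0.15). Jon99Cii and Jon99Ciii are listed at 0 in 1 and 2 mutant libraries, respectively, and at 878 FPKM or more in every other library, which can be a failed estimate. Both rows are part of the midgut sum. The defining marker mex1, an enterocyte gene, was at 67.3 FPKM or more in every library, and gammaTry was the row of the list that was listed at 0 in both yw libraries. In whole larvae, fewer or more cells of a type and less or more RNA per cell cannot be told apart.

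Other tissues differed as well, and their part in the maltase values was not tested. Calls in the mean of both mutants stand against 4.68% of all rows called higher and 1.7% lower. A list with 0 calls, here or later, is not shown to be unchanged. Larval muscle genes summed to 1509 and 2701 FPKM in yw and to 6551 to 12731 FPKM in the mutants, with 5 of 10 called higher in the mean of both mutants, led by Mhc (2.87 ± 0.33), Act57B (2.85 ± 0.44), Mlc2 (2.65 ± 0.43) and Mlc1 (2.56 ± 0.41). Malpighian tubule genes summed to 24.8 and 31.9 FPKM in yw and to 78.9 to 277 FPKM in the mutants, with Smvt (2.83 ± 0.39) and salt (2.65 ± 0.27) called higher among 5. Salivary glue genes were lower in sum, at 60796 to 73877 FPKM in yw and 19183 to 45047 FPKM in mutants, with 0 of 6 called in limma. Of the 6 glue genes, 4 were below yw in all 4 mutant libraries, as were 19.8% of the tested rows, and the others overlapped with yw. The most abundant, Sgs7 and Sgs5, were among the 4. For neurons, 0 of 5 rows were called in limma, Syt1 and elav being the most abundant. Their summed level was 52.6 to 71.0 FPKM in yw and 37.4 to 55.2 FPKM in the mutants for all 5 rows. Fat body rows gave no usable sum, since 5 of 6 were listed at 0 in some libraries, including Lsp2 in both HP1b16 libraries. Lsp2 was the 1 row of all tested rows called lower in HP1b16 against yw, and likewise in HP1b16 against HP1b86. Both calls rest on its listing at 0 in both HP1b16 libraries, which can be a failed estimate. The order of replicates seen for Mal-A1 to Mal-A4 in yw and HP1b86 was also that of the midgut, muscle and tubule sums. In yw replicate 2 was the higher, and in HP1b86 replicate 1 was, with 102847 and 50448 FPKM for midgut, 11413 and 6551 FPKM for muscle and 277 and 78.9 FPKM for the tubule.

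To set the maltases against the midgut, each was divided by the geometric mean of 3 enterocyte genes (mex1, GATAe and Myo31DF), chosen after their values were seen. That mean was 19.7 and 20.8 FPKM in yw, 29.7 and 37.7 FPKM in HP1b16 and 54.5 and 40.01 FPKM in HP1b86. Mal-A1, at 0.441 and 0.584 per marker FPKM in yw, was at 2.91 and 2.30 in HP1b16 and at 2.16 and 1.29 in HP1b86. Mal-A2 and Mal-A3 were likewise above yw in all 4 mutant libraries. Mal-A4 overlapped, because HP1b86 replicate 2 stood at 0.110 and yw replicate 2 at 0.114 per marker FPKM, and so did Mal-A7, Mal-A8 and Mal-B1. Mal-A5 was 16.0 and 14.1 per marker FPKM in yw, with mutant libraries from 3.12 to 6.87, and Mal-A6 and Mal-B2 were also below yw in all 4 mutant libraries. On this scale 6.44% of all tested rows were above yw in all 4 mutant libraries and 63.5% were below. The separation depended on the marker. Of 21 midgut markers above 0 in every library, Mal-A3 was above yw in all 4 mutant libraries for 19, Mal-A1 for 15, Mal-A2 for 8 and Mal-A4 for 4, while Mal-A5 was below for all 21 and Mal-A6 and Mal-B2 for 20 each. Mal-A1 overlapped when divided by Vha100-4, with 8.96 and 8.91 in yw and 4.65 to 8.96 in the mutants, and when divided by betaTry. By the geometric mean of all 21, Mal-A1 and Mal-A3 were above yw in all 4 mutant libraries. Mal-A5, Mal-A6, Mal-B1 and Mal-B2 were below, and Mal-A2, Mal-A4, Mal-A7 and Mal-A8 overlapped. The share of all tested rows is not given for single markers or for all 21, so nothing is read from these counts. Most of these markers were themselves above yw in all 4 mutant libraries, which lowers any gene divided by them. Lying below yw for most of them is therefore not read as a trait of Mal-A5, Mal-A6 or Mal-B2. These divisions were added after the values were seen.

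**Figure D5:**
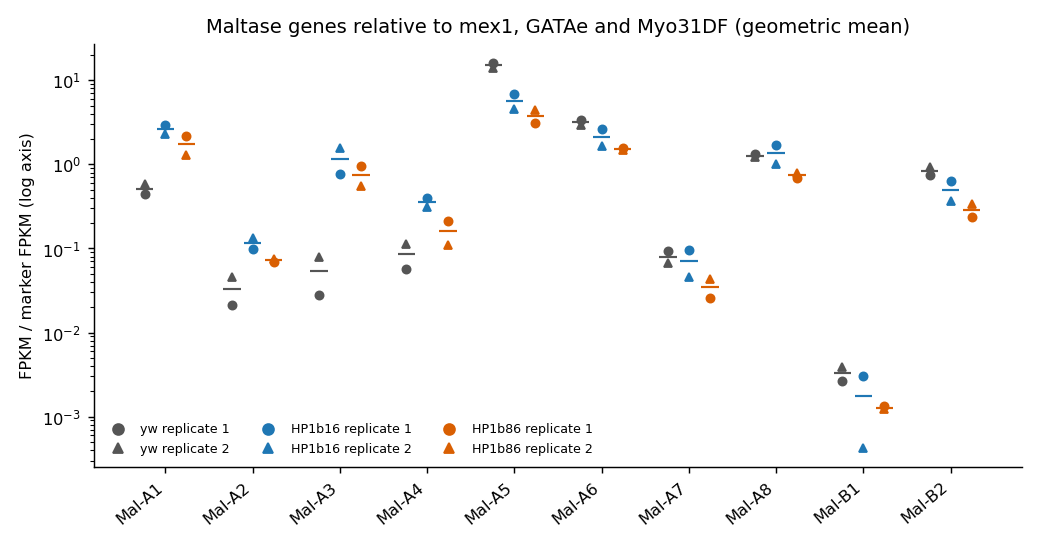
FPKM of each maltase gene divided by the geometric mean of mex1, GATAe and Myo31DF in the same library, on a log axis; circles are replicate 1, triangles replicate 2 and short lines the mean of 2 libraries. Mal-A1, Mal-A2 and Mal-A3 lie above yw in all 4 mutant libraries, as do 6.44% of all tested rows, and Mal-A5, Mal-A6 and Mal-B2 below it, as do 63.5%; other midgut markers as divisors gave other sets.

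Other genes of carbohydrate-cleaving enzymes did not follow 1 pattern. Of 13 such rows, 11 were tested, and the median difference in the mean of both mutants was 0.28. There 2 were called higher and 0 lower, against 4.68% and 1.7% of all rows. In all 4 mutant libraries, 5 of the 11 were above both yw libraries and 3 below, against 24.4% and 19.8% of tested rows. The 3 below were Gal (-1.375 ± 0.28), LManI (-0.95 ± 0.17, listed as CG5322) and LManII (-0.57 ± 0.12, listed as LM408). The sum of the 13 rows had the same order of replicates, at 436 and 514 FPKM in yw and 1169 and 787 FPKM in HP1b86. The called rows were the alpha-mannosidase genes LManV (4.68 ± 0.74; the table lists it as CG9466) and LManVI (5.17 ± 0.76; CG9468), which had 1.62 and 4.32 FPKM, and 2.23 and 5.22 FPKM, in yw. They were at 33.5 to 226 FPKM and 47.2 to 449 FPKM in the mutants, so the groups were far apart in both. The amylases Amy-p and Amy-d, which supply maltose from starch and have nearly the same sequence, overlapped between genotypes: Amy-p was at 45.2 and 82.0 FPKM in yw, and its mutant libraries ran from 53.7 to 92.2 FPKM.

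Among 9 tested sugar transporters, Glut1, a glucose transporter, was called lower in the mean of both mutants (-0.71 ± 0.12, adjusted p = 0.0494, limma), and 0 were called higher. Over all rows, 1.7% were called lower and 4.68% higher. Glut1 was at 23.9 and 19.7 FPKM in yw, and no mutant library exceeded 13.9 FPKM. Of 11 tested genes of sugar sensing and sugar repression, 0 were called in either direction in limma. The most abundant were sug, a zinc finger factor of the sugar response whose row it shares with CG13319, at 36.3 and 39.0 FPKM in yw and 64.0 to 187 FPKM in the mutants, and cbt, at 50.8 and 64.3 FPKM in yw and 38.9 to 96.6 FPKM in the mutants. The ligand gene daw, which encodes Dawdle, differed by 0.00 ± 0.23, with 29.7 and 38.8 FPKM in yw and 28.3 to 44.5 FPKM in the mutants.

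The rows most like the highest and the lowest tested maltase over the 6 libraries were taken by Pearson correlation of log2(FPKM + 1), as a description. For Mal-A5 they were CG9005 (r = 0.998), CG2663, the autophagy kinase gene Atg1, CR44390 and CG3548, all at 0.997 or more. The 6 libraries fall into 2 levels for these rows, yw and mutant, so a high r needs little more than a lower level in the mutants: CG9005 was at 44.7 and 38.7 FPKM in yw and at 13.9 to 19.5 FPKM in the mutants. For Mal-A7 they were the cryptochrome gene cry (r = 0.972), the muscle regulator Mef2 (r = 0.940), CR44316, CG1632 and CG3880, and the pattern is mainly a high HP1b16 replicate 1, where cry stood at 3.40 FPKM compared to 1.33 to 2.01 FPKM elsewhere. Library depth and composition are shared by all of these points.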

How the data were processed

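RNA of whole larvae, prepared with Trizol, was sequenced by the submitters, with 2 libraries each for yw, HP1b16 and HP1b86, grouped by their labels. Per the submitters' processing notes, bcl2fastq 2.18.0.12, Trim Galore 0.4.1, TopHat2 2.1.1 and Cufflinks 2.2.1 were used with dm3. The deposited values are FPKM made by the authors, and 626 of 16662 rows hold several genes. The annotation and any scaling between libraries are not given in the sources used here.

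The 10986 rows whose mean reached 1 FPKM were compared on log2(FPKM + 1) across all genes with limma 3.58.1 in R 4.3.3, with all 6 libraries in 1 fit, a mean-variance trend and Benjamini-Hochberg adjustment over all rows, at a threshold of 0.05. The prior had 1.59 degrees of freedom. The code of the fit was checked on simulated data with 1 spread for all rows, which does not show what it can detect here. Relative depth is the inverse of the most frequent ratio of low FPKM values to those of yw replicate 1. Only 30.7% to 39.6% of the 137 to 332 low rows used for a library lay near that ratio, so these estimates are rough. The paper gives a range of reads collected per sample, which is narrower than the span of these estimates. Reads of each library are not given, so the counting precision of single values is unknown. No sequence is given here.

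Members, gene lists and alternatives were chosen with earlier results of these data known. Named genes are all members, and from each list up to 4 rows called in the mean of both mutants or else the 2 most abundant. The rule also names HP1b and the 5 rows most correlated with the highest and the lowest tested member. Npc1b, betaTry and the others named as markers follow this rule. The genes daw, Amy-p, Amy-d, Gal, LManI, LManII, mex1, GATAe, Myo31DF, Vha100-4, gammaTry, Jon99Cii, Jon99Ciii and the flanking genes were added after their values were seen. Alternatives were another pseudocount, no filter, 3 scalings, no trend, a replicate block, fits of 2 genotypes alone and leaving out each library.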

Additional observations from a re-analysis of the deposited data

How the results depend on the processing

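Each count is of maltase genes past the threshold out of 9 tested, with the share of all rows called in the same fit in brackets. For HP1b16 against yw it was 0 (0.0182%), 2 after scaling every library to the same summed FPKM, called TPM (2.66%), 2 after quantile normalization (4.02%) and 6 with those genotypes fitted alone (21.7%). Leaving out 1 library gave 0 to 6, the 6 without HP1b86 replicate 1 (21.7%) or 2 (21.6%). For HP1b86 against yw it was 1 (4.03%), 2 with a pseudocount of 0.1 (5.39%), 3 with TPM (18.9%) or quantile normalization (7.54%), and 0 with no filter on low values (1.35%), median ratios (0.0091%), no mean-variance trend (2.43%) or the genotypes alone (0%). Leaving out 1 library gave 0 to 5, the 5 without HP1b86 replicate 2 (42.6%). For the mean of both mutants it was 3 (6.38%) and between 2 and 4 over pseudocount, filter, scaling and trend (3.06% to 11.3%), Mal-A5 being lost with no filter and with median ratios. Leaving out 1 library gave 0 to 6: 5 without HP1b86 replicate 1 (16.1%), 6 without HP1b86 replicate 2 (46%) and 0 without any other library (0%). For HP1b16 against HP1b86 it was 0 in every fit (at most 18.3%). The cause was not tested. Fits lacking a library leave a genotype with 1, which is assumed to vary like the others.

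The replicate numbers do not pair the libraries: deviations of the same number correlated at 0.07 for yw and HP1b16, -0.40 for yw and HP1b86 and -0.12 for HP1b16 and HP1b86. With the replicate block, 0 genes passed in each of the comparisons with yw (0%). With the HP1b86 numbers crossed, which was chosen after seeing the data, 3 passed in HP1b16 (4.87%), 3 in HP1b86 (7.19%) and 5 for their mean (10.5%).

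Of 531 values of single members under alternatives, 474 moved by less than the replicate spread and 57 by more. Among values called in the main fit, 0 changed sign. Uncalled values of Mal-A6, Mal-A7, Mal-A8 and Mal-B2 against yw did so in some alternatives, as did several differences between the alleles. Mal-A1 to Mal-A4 were higher and Mal-A5 lower than yw in every alternative. Scaling to TPM moved the median of all rows to -0.45 in the mean of both mutants, where Mal-A5 was at -1.17, Mal-A6 at -0.27, Mal-A7 at -0.12, Mal-A8 at 0.17 and Mal-B2 at -0.60 (-0.91 in HP1b86); quantile normalization also turned Mal-A6 below 0, and median ratios turned Mal-B2 in HP1b16 above 0. Over all rows, 514 of 701 calls for the mean of both mutants were upward, compared to 558 of 1214 with TPM and 652 of 1246 with quantile normalization. Depth limits Mal-B1 and, in yw, Mal-A2 and Mal-A3.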
